A study of Mus musculus with 9 samples.

Results

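The nuclear-encoded subunits of the mitochondrial respiratory chain were followed in C2C12 cells, a mouse myoblast line, after knockdown of an RNA-binding protein and arrest of transcription. Members were the probe sets whose single annotated symbol names a subunit of complex I (Nduf followed by a, b, c, s or v and a number), complex II (Sdha to Sdhd), complex III (Uqcr), complex IV (Cox4 to Cox8) or complex V, the ATP synthase (Atp5). This rule took 105 of 35556 probe sets, which stand for 81 of 19938 named genes: 35 of complex I, 4 of complex II, 8 of complex III, 17 of complex IV and 17 of complex V. The rule used symbols and no measured value. Of the 81 genes, 74 had a mean log2 intensity at or above 7.385, the median of all named probe sets, and were tested among 9864 genes.

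Cells received Mbnl1 siRNA, Cugbp1 siRNA (the gene's current symbol is Celf1) or control siRNA, then actinomycin D, an inhibitor of transcription, at 5 ug/ml, and total RNA was taken 0, 2.5 and 5 h later. Each of the 9 combinations was measured on 1 Affymetrix whole-transcript array, so that every siRNA and every time has 3 arrays. The series asks how mRNAs decay when either protein is depleted. No combination was replicated and the labels do not say that arrays came from separate cultures, so each p-value compares an effect with the variation between arrays that siRNA and time do not account for, and precision is limited by the small number of arrays.

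The respiratory chain passes electrons from NADH through complex I, and from succinate through complex II, to complex III, cytochrome c and complex IV, and complex V makes ATP from the proton gradient that this builds. The mitochondrial genome encodes some core subunits, and nuclear genes encode the rest, which are made in the cytosol and imported. Muscle relies on this chain, and complex IV has separate muscle and ubiquitous isoforms of several subunits. The promoters of many of these genes are known to be bound by NRF-1, by ETS factors such as GABP and by YY1.

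Promoter windows from RefSeq (GRCm38.p6), which run from 250 bases before to 50 bases after a gene's start, were found for 66 of the 81 genes and gave 71 windows. The 10-letter palindrome that NRF-1 binds was in 5 of the 71 windows (7.04%), against 0.971% of all 32851 windows of the same length. Below are 60 bases around this motif, which is in capitals, for Atp5k on the minus strand at chr5:108434415-108434474, Cox6a1 on the minus strand at chr5:115349086-115349145, Atp5g2 on the minus strand at chr15:102671055-102671114 and Ndufa11 on the plus strand at chr17:56717677-56717736. They are shown because they hold the same letters before genes that encode parts of 3 complexes, and because Atp5k had the largest change of all members described below.
Atp5k: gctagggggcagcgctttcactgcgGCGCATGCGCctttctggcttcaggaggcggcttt
Cox6a1: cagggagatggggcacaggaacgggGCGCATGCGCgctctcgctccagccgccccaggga
Atp5g2: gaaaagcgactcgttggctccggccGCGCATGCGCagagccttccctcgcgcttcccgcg
Ndufa11: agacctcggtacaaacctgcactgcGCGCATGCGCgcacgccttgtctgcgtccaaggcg
The first base of the motif lay 50, 162, 42 and 60 bases before the start in these 4, and in the fifth gene, Uqcrc1, it lay after the start. The other motifs were searched on both strands as well. The ETS letters CCGGAAG were in 23.9% of member windows and 8.86% of all windows. The YY1 letters AAGATGGCG were in 9.86% and 1.40%. GGGCGG, a GC box, was in 39.4% and 35.7%, and TATAAA in 12.7% and 13.6%. Some windows hold more than 1 of these motifs, and a match describes letters and not a bound site.

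Celf1 mRNA under Cugbp1 siRNA stood at 30.9%, 22.1% and 21.6% of control at 0, 2.5 and 5 h, and Mbnl1 mRNA under Mbnl1 siRNA at 22.0%, 18.3% and 15.9%. All 6 myoblast markers passed the filter. Of the differentiated muscle markers 3 of 6 did (Tnnt3, Ckm and Acta1), of the adipocyte markers 0 of 3, of the endothelial markers 0 of 2, and of the macrophage markers 1 of 3 (Cd68, a lysosomal protein). The median intensity of the arrays lay between 104.9 and 113.0. The deposited values are made so that arrays share 1 distribution, so each change is a change in share. In bulk RNA, fewer cells with a transcript and less of it per cell cannot be told apart.

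Under the filter lay 7 respiratory chain genes, and 6 of them are complex IV isoforms of restricted tissues. Their mean log2 intensities were 7.29 for Cox6a2 and 6.88 for Cox8b, the heart and skeletal muscle forms, 7.11 for Cox4i2, known from lung, 6.36 for Cox6b2, 4.36 for Cox7b2 and 7.20 for Cox8c, known from testis. The other was Ndufa4l2 (6.62), a hypoxia-induced relative of Ndufa4. The ubiquitous forms Cox4i1, Cox6a1, Cox6b1, Cox7a2 and Cox8a passed, as did Cox7a1, the heart and skeletal muscle form of subunit 7a, with a mean log2 of 8.15. The filter value is not a measured background, so a gene under it is not shown to be silent.

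After 5 h of actinomycin D the respiratory chain transcripts had gained on the rest of the array. Of the 74 tested genes, 66 were higher at 5 h than at 0 h and 0 were lower, at a Benjamini-Hochberg adjusted p under 0.05 in limma. Over all 9864 genes 35.6% were higher and 32.8% lower. The median log2 difference was 0.27 over the members and 0.04 over all genes. In 64 of the 74, all 3 arrays at 5 h lay above all 3 at 0 h, which 19.8% of all genes did, and in 0 members they all lay below (24.4% of all genes). The gain was seen within each siRNA, with member medians of 0.28 under Mbnl1 siRNA, 0.28 under Cugbp1 siRNA and 0.22 under control siRNA, and 71 of 74 members were above 0 in all 3 arms, against 43.2% of all genes.

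**Figure D1:**
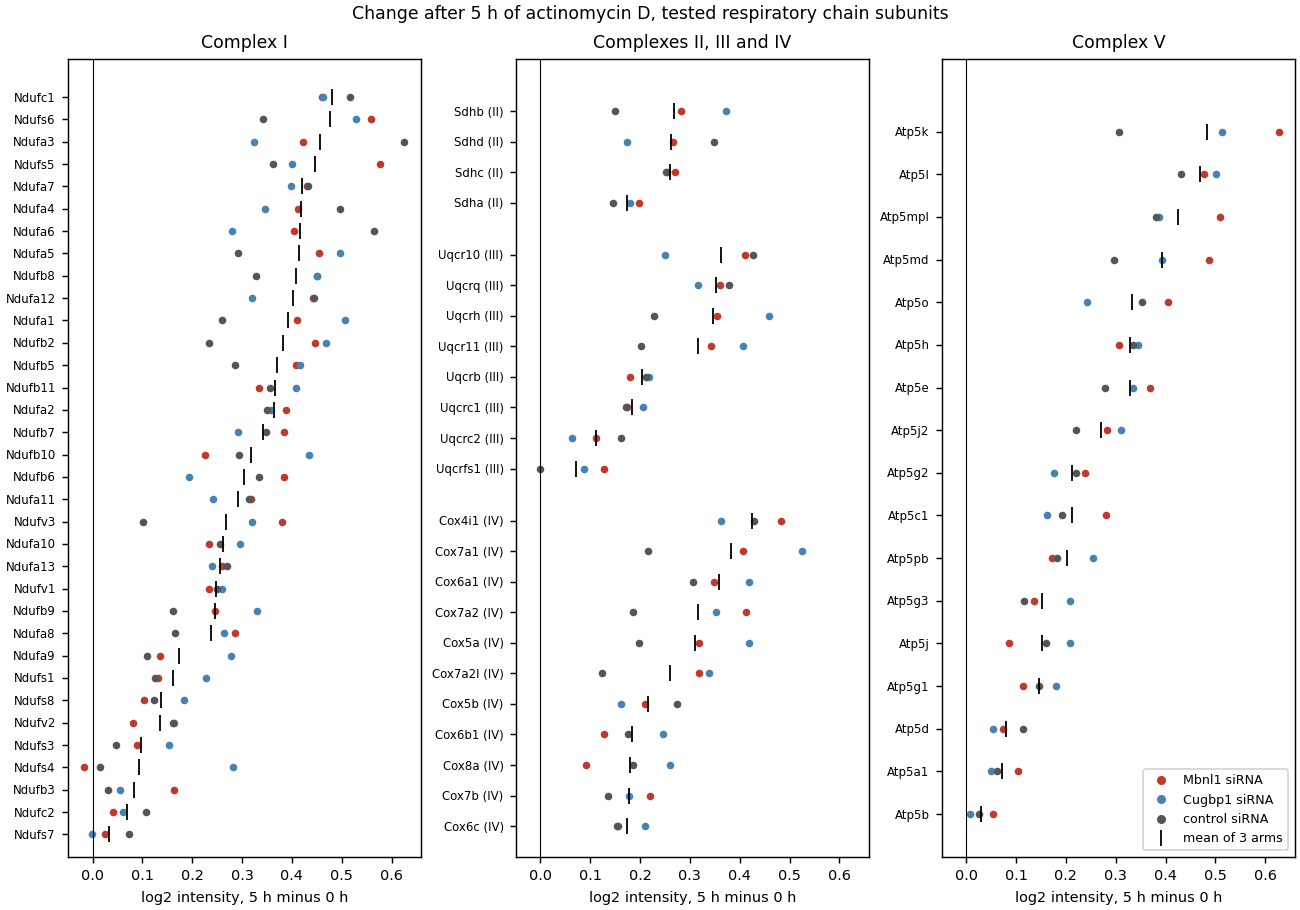
Log2 difference of 5 h minus 0 h for each of the 74 tested respiratory chain genes, grouped by complex, with 1 point for each siRNA and a bar for the mean of the 3. All 74 means lie above 0, from 0.03 for Atp5b to 0.48 for Atp5k.

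These gains are shares of the array and not amounts of RNA. Scaling the arrays to equal medians of 53 ribosomal protein transcripts, which themselves gained on the rest of the array, moved the median of all genes at 5 h to −0.19 and that of the members to 0.04. On that scale 15 members were higher (2.37% of all genes were) and 4 were lower (55.5% of all genes were): Atp5b, Ndufs7, Uqcrfs1 and Atp5a1. In all, 28 of the 74 were below 0 on that scale. Without it, 72 of 74 members lay above the median of all genes, an order that a scaling of whole arrays leaves as it is.

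Complex V held both ends of the range. Atp5k, the small e subunit of the membrane sector, read 357, 488 and 552 at 0, 2.5 and 5 h under Mbnl1 siRNA, 327, 421 and 467 under Cugbp1 siRNA, and 345, 438 and 427 under control siRNA. The 3 arrays at 5 h all lay above the 3 at 0 h. Its log2 difference at 5 h was 0.48 ± 0.06 (SE, n = 3 arrays per time; limma adjusted p = 0.000199), a 1.40-fold gain, and 0.25 with equal ribosomal protein medians. Atp5b, the catalytic beta subunit, read 14270.3, 14569.5 and 14802 under Mbnl1 siRNA, 14526, 14749 and 14602 under Cugbp1 siRNA, and 14716, 14868 and 14984 under control siRNA. Its times overlap, and the log2 difference at 5 h was 0.03 ± 0.03 (limma adjusted p = 0.456); with equal ribosomal protein medians it was −0.20 and passed the test.

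Within complex V, 2 of the 5 subunits of the F1 head passed the test (Atp5c1 and Atp5e), with a group median of 0.08, and all 12 other subunits did, with a group median of 0.30. The alpha subunit Atp5a1 had a log2 difference of 0.07 ± 0.04 (limma adjusted p = 0.101) and the delta subunit Atp5d 0.08 ± 0.03 (adjusted p = 0.0620). Among the membrane sector subunits, Atp5l (subunit g) was higher by 0.47 ± 0.05, Atp5md by 0.39 ± 0.05 and Atp5mpl, a small proteolipid, by 0.42 ± 0.05. The c-ring genes Atp5g1, Atp5g2 and Atp5g3, which encode 1 mature protein, gained 0.15, 0.21 and 0.15, and each of these 3 was below 0 with equal ribosomal protein medians. The difference between the F1 subunits and the others was not tested.

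Complex I had the same kind of spread. Of its 34 tested genes, 30 were higher at 5 h, with a median of 0.31. Ndufc1, a small accessory subunit, read 1307, 1514 and 1798 at 0, 2.5 and 5 h under Mbnl1 siRNA, 1203, 1522 and 1657 under Cugbp1 siRNA, and 1174, 1543 and 1679.6 under control siRNA. All arrays at 5 h were above all at 0 h, and the gain was 0.48 ± 0.04 (limma adjusted p = 3.70e-05). Ndufs6 (0.48 ± 0.07), Ndufa3 (0.46 ± 0.06), Ndufs5 (0.45 ± 0.05) and Ndufa7 (0.42 ± 0.05), all accessory, followed, as did Ndufa4 (0.42 ± 0.06), counted here with complex I by its symbol though its protein is now placed in complex IV. These 6 were also higher with equal ribosomal protein medians.

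The core subunits of complex I, which carry the flavin and the iron-sulfur clusters or the quinone site, had smaller gains. Of the 6 tested, 5 were higher at 5 h, with a median of 0.14, and of the 28 accessory subunits 25 were, with a median of 0.37; the difference between these groups was not tested. Ndufv1, which holds the flavin, was higher by 0.25 ± 0.03, Ndufs1 by 0.16 ± 0.04, Ndufs8 by 0.14 ± 0.04, Ndufv2 by 0.14 ± 0.04 and Ndufs3 by 0.10 ± 0.04. Ndufs7 read 8506, 8626 and 8651 under Mbnl1 siRNA, 8655, 8602 and 8651 under Cugbp1 siRNA, and 8129, 8536 and 8552 under control siRNA. It differed by 0.03 ± 0.03 at 5 h (limma adjusted p = 0.427). On the scale of equal ribosomal protein medians, Ndufs1, Ndufs3, Ndufs7, Ndufs8 and Ndufv2 were below 0, and Ndufs7 passed the test. Among the accessory subunits, Ndufc2 (0.07), Ndufb3 (0.08) and Ndufs4 (0.09) did not pass the test.

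Complex II, the succinate dehydrogenase, has no mitochondrially encoded subunit, and all 4 of its genes were higher at 5 h. The membrane anchors Sdhc and Sdhd gained 0.26 ± 0.03 and 0.26 ± 0.04, the iron-sulfur subunit Sdhb 0.27 ± 0.05 and the flavoprotein Sdha 0.17 ± 0.03. None of the 4 passed with equal ribosomal protein medians, and Sdha was then at −0.05. In complex III, 7 of 8 were higher: the 5 small subunits Uqcr10, Uqcr11, Uqcrb, Uqcrh and Uqcrq with a median of 0.35, and the core proteins Uqcrc1 (0.18 ± 0.04) and Uqcrc2 (0.11 ± 0.04). Uqcrfs1, the Rieske iron-sulfur protein that hands electrons to cytochrome c1, did not pass at 0.07 ± 0.04 (limma adjusted p = 0.124). It read 614, 637 and 669.9 under Mbnl1 siRNA, 671, 679 and 713 under Cugbp1 siRNA, and 671 at each time under control siRNA, so the times overlap. With equal ribosomal protein medians Uqcrb, Uqcrc1, Uqcrc2 and Uqcrfs1 were below 0, and Uqcrfs1 passed the test as lower. Uqcrb was read by the brightest of its 3 probe sets, which gained 0.20 to 0.24 as deposited, and its sign on that scale depends on the probe set.

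All 11 tested genes of complex IV were higher at 5 h, with a median of 0.26. Cox4i1, the ubiquitous form of subunit 4, read 1936, 2426 and 2703 at 0, 2.5 and 5 h under Mbnl1 siRNA, 2030.2, 2288 and 2609.9 under Cugbp1 siRNA, and 1837, 2204 and 2471 under control siRNA. Each arm climbed at both steps, and the 5 h arrays lay above the 0 h arrays. The difference was 0.42 ± 0.04 (limma adjusted p = 4.61e-05), and 0.20 with equal ribosomal protein medians, where Cox4i1 was the 1 complex IV gene that passed. The muscle form Cox7a1 gained 0.38 ± 0.06 and the ubiquitous Cox7a2 0.32 ± 0.06. Cox6a1 gained 0.36, Cox7a2l, a supercomplex assembly factor with a subunit's sequence, 0.26, Cox6b1 0.18 and Cox8a 0.18. Cox6b1 and Cox8a, like Cox5b, Cox6c and Cox7b, were below 0 with equal ribosomal protein medians, each by its brightest probe set. As deposited, the 2 probe sets gained 0.22 and 0.24 for Cox5b and 0.18 and 0.31 for Cox7b, the brighter named first. The sign of Cox5b and Cox7b on that scale thus depends on the probe set.

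**Figure D2:**
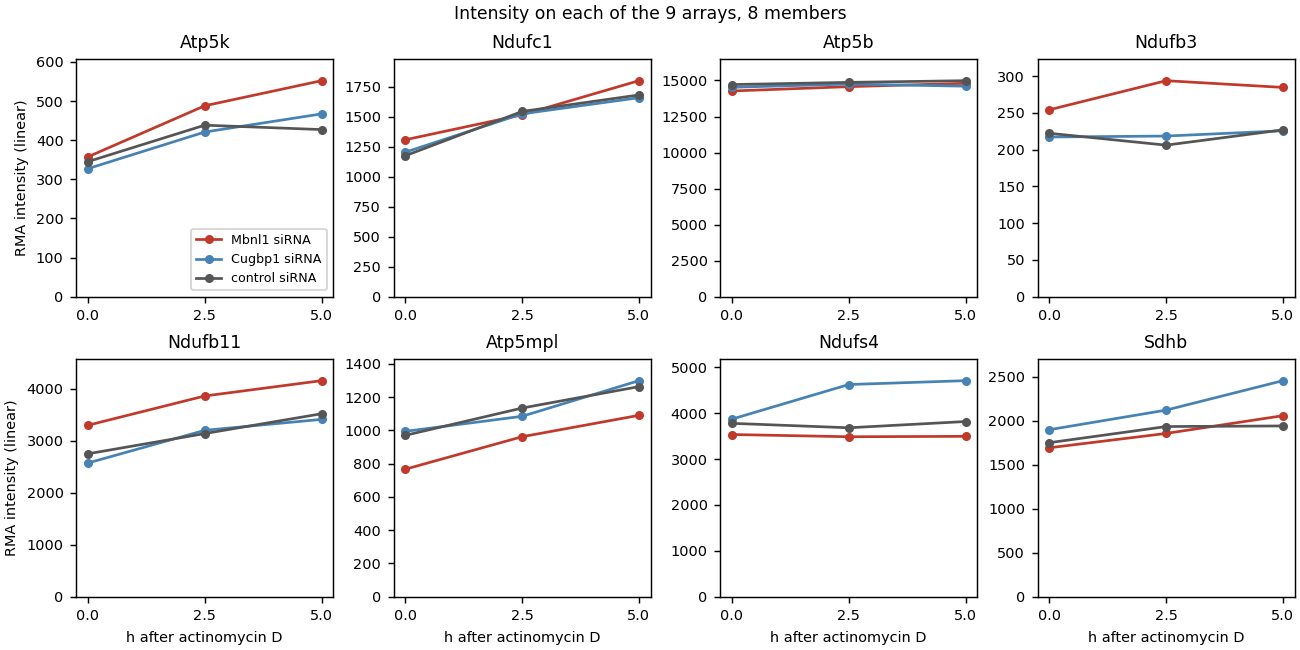
Intensity (linear scale, as deposited) on each of the 9 arrays against hours of actinomycin D for 8 members from the ends of the range or with a difference between siRNAs, with a line for each siRNA. Atp5k and Ndufc1 are higher at 5 h than at 0 h in every arm, and Atp5b stays between 14270.3 and 14984.

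Across the 74 members, the brighter the probe set, the smaller the gain. Pearson's r between mean log2 intensity and the 5 h difference was −0.58 and Spearman's rho −0.63. This is a description across genes that share the same 9 arrays, and brightness is set by probe sequence as well as by the transcript. Over all 9864 genes rho was 0.19. Of the 8 members with a mean log2 under 9, 7 were higher at 5 h, against 26.7% of all genes of that brightness. From 9 to 10, 8 of 9 were, against 32.2%. Of the 15 members with a mean log2 of 10 to 11, all were higher, against 41.9%. From 11 to 12, 19 of 20 were, against 48.6%. Of the 16 members from 12 to 13, 14 were higher, against 54.4% of all genes. Of the 6 members at 13 or above, 3 were, against 47.8%. The share of members that passed thus did not fall step by step with brightness. The part of brightness in the differences between subunit groups was not tested.

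**Figure D3:**
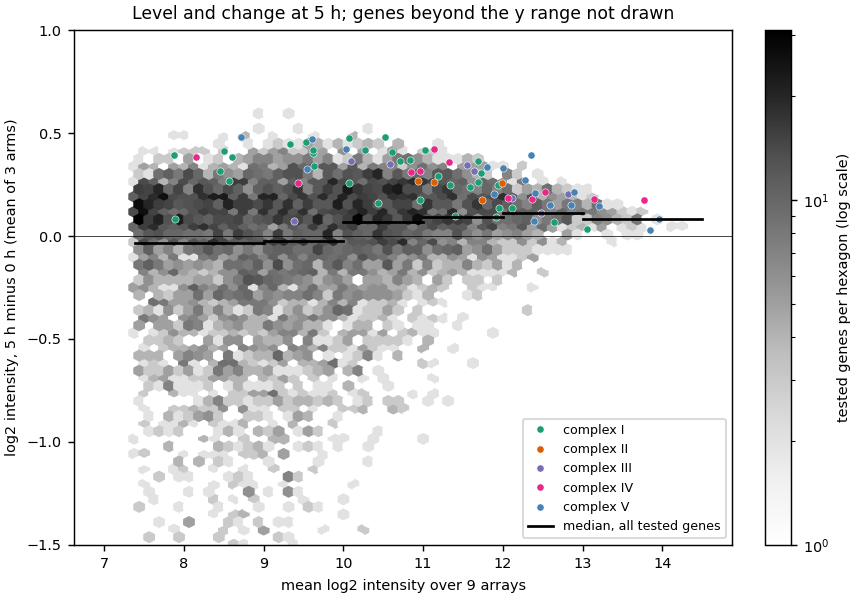
Log2 difference of 5 h minus 0 h against mean log2 intensity over the 9 arrays, with the 74 members coloured by complex over all 9864 tested genes (grey hexagons, count on a log scale) and the median of all genes by brightness as bars; genes beyond the y range are not drawn. The members lie in the upper part of the cloud and slope down to the right (Spearman's rho −0.63).

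Probe sets of a single gene all rose at 5 h, but not always by the same amount. Several probe sets, 40 in all, stood for 16 members, and the 5 h difference ranged within a gene by a median of 0.036 and at most by 0.134. The range was under 0.05 for 10 of the 16 and was wide for Cox7b (0.18 and 0.31) and Atp5h (0.33 to 0.46). Signs given with equal ribosomal protein medians rest on the brightest probe set alone. Under Mbnl1 siRNA, the 2 probe sets of Cox7a2l differed from control by −0.03 and 0.05. Of all 105 member probe sets, 104 were above 0 at 5 h.

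The gain had begun by 2.5 h. Then 48 of the 74 members were higher than at 0 h and 0 were lower, against 23.1% and 24.2% of all genes, with a median of 0.15 (all genes 0.03). All 3 arrays at 2.5 h lay above all 3 at 0 h for 47 members and below for 0, which 12.6% and 17.8% of all genes did. The largest were Atp5k (0.39 ± 0.06), Ndufa3 (0.38 ± 0.06), Ndufs6 (0.34 ± 0.07), Atp5l (0.33 ± 0.05), Ndufa5 (0.32 ± 0.05) and Ndufc1 (0.32 ± 0.04), and these 6 also passed with equal ribosomal protein medians, where 7 members were higher and 0 lower (1.49% and 31.8% of all genes). The count was 31 without the control array at 2.5 h and 30 without the Cugbp1 siRNA array at 2.5 h.

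Between 2.5 and 5 h, 20 members were higher and 0 were lower, against 4.47% and 17% of all genes, with a median of 0.10 (all genes −0.0016). The largest steps were those of Ndufa1 (0.27 ± 0.07), Ndufs5 (0.25 ± 0.05), Ndufa6 (0.23 ± 0.06) and Uqcr10 (0.23 ± 0.05). None of the 74 passed in limma with equal ribosomal protein medians, where 2 had an unadjusted p under 0.05, against 4190 of all 9864 genes. On that scale 0.071% of all genes were higher and 31.6% lower. The count was 2 without the Mbnl1 siRNA array at 2.5 h and 4 without that at 5 h, 4 and 8 without the control arrays at 2.5 and 5 h, and 8 and 10 without the Cugbp1 siRNA arrays at those times.

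Nuclear genes that serve the chain without being in the list were described beside it. Of the other subunits and cytochromes, 4 were tested and all 4 were higher at 5 h: Ndufab1, the acyl carrier protein of complex I (0.38 ± 0.04), Atpif1, the inhibitor of the ATP synthase (0.18 ± 0.04), cytochrome c, Cycs (0.15 ± 0.03), and cytochrome c1, Cyc1 (0.11 ± 0.04). Of 38 tested assembly factors, 16 were higher and 10 lower, with a median of 0.06. These shares are near the 35.6% and 32.8% of all genes. Coa7, an assembly factor of complex IV, fell by 1.04 ± 0.06, the copper chaperone Cox11 by 0.63 ± 0.04, and the complex I assembly factors Ndufaf4 and Ndufaf1 fell by 0.60 ± 0.08 and 0.59 ± 0.07. Cox17, another copper chaperone, was higher by 0.49 ± 0.05 and Cox20 by 0.40 ± 0.07. Of 15 tested genes of the citrate cycle and pyruvate dehydrogenase, 12 were higher and 0 lower, with a median of 0.14. With equal ribosomal protein medians 0 of the 4 other subunits passed, 1 assembly factor was higher and 20 were lower, and 0 of the citrate cycle genes were higher and 3 lower.

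Under Mbnl1 siRNA a part of the respiratory chain was higher than under control siRNA. Over the 3 times, 22 of the 74 members were higher and 1 was lower, against 24% and 31% of all genes. The share of higher members was thus near that of all genes, and the share of lower members under it. The median was 0.07, against −0.02 for all genes. With equal ribosomal protein medians 16 were higher and 1 lower, against 20.1% and 25.4% of all genes. By complex, 10 of 34 were higher in complex I, 0 of 4 in complex II, 4 of 8 in complex III, 3 of 11 in complex IV and 5 of 17 in complex V.

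**Figure D4:**
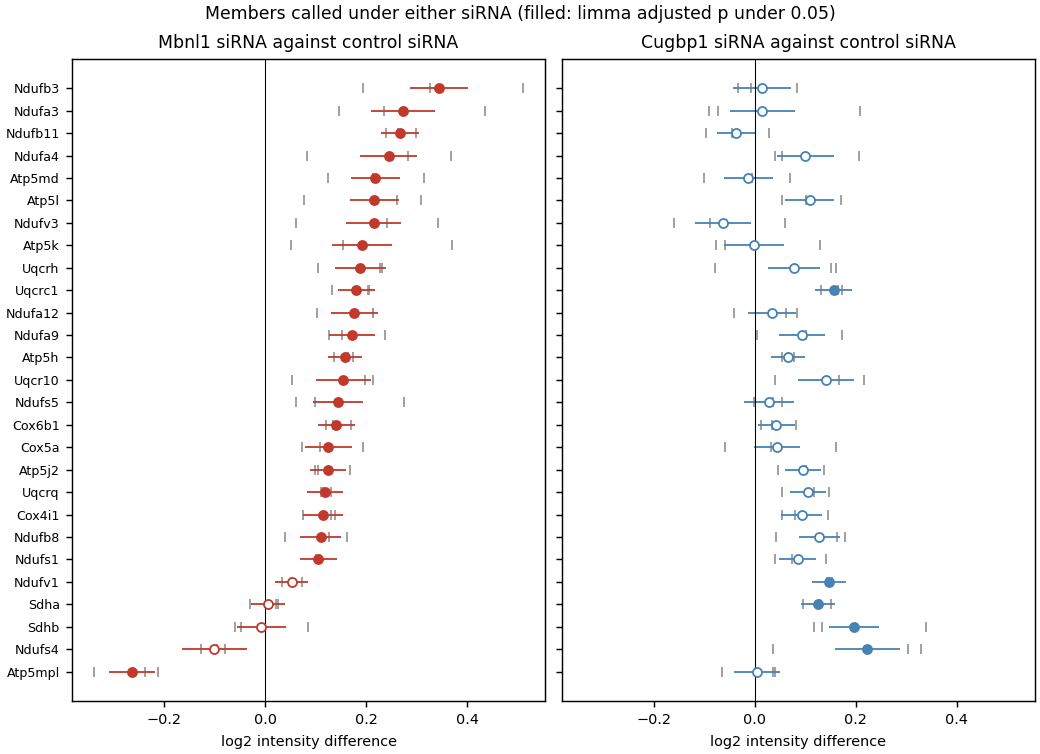
Log2 difference of Mbnl1 siRNA minus control siRNA and of Cugbp1 siRNA minus control siRNA for the members that passed the test under either siRNA (filled where they passed), with the SE as a line and a tick for each time; the comparisons share the control arrays. Ndufb3 is highest and Atp5mpl lowest under Mbnl1 siRNA, and Ndufs4 is highest under Cugbp1 siRNA.

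Ndufb3, an accessory subunit of the complex I membrane arm, read 254, 294 and 285 at 0, 2.5 and 5 h under Mbnl1 siRNA, 217, 218 and 226 under Cugbp1 siRNA, and 222, 206 and 227 under control siRNA. The Mbnl1 siRNA arrays lay above both other arms at every time. The log2 difference from control was 0.34 ± 0.06 (SE, 3 arrays for each siRNA; limma adjusted p = 0.00136), a 1.27-fold higher level. Ndufb11, another membrane arm subunit, encoded on the X chromosome, read 3297, 3859.8 and 4154 under Mbnl1 siRNA, 2571, 3199 and 3409.8 under Cugbp1 siRNA, and 2748, 3137 and 3518 under control siRNA. It was higher than control at each time, by 0.27 ± 0.04 (limma adjusted p = 0.000601), though the arms overlap across times. Ndufa3 (0.27 ± 0.06), Ndufa4 (0.24 ± 0.06), Atp5md (0.22 ± 0.05), Atp5l (0.22 ± 0.05), Ndufv3 (0.21 ± 0.06), Atp5k (0.19 ± 0.06), Uqcrh (0.19 ± 0.05) and Uqcrc1 (0.18 ± 0.04) were higher too, and all 8 also passed with equal ribosomal protein medians.

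The 1 lower member was Atp5mpl, which read 767, 963 and 1091 at 0, 2.5 and 5 h under Mbnl1 siRNA, 995, 1085 and 1299.7 under Cugbp1 siRNA, and 971, 1135 and 1264 under control siRNA. It was below control at each time, by −0.26 ± 0.05 (limma adjusted p = 0.00167), though the arms overlap across times. All 3 arms gained between 0 and 5 h. Atp5md is, like Atp5mpl, a small subunit of the membrane sector, and it read 4888, 5831 and 6852 under Mbnl1 siRNA, 4178, 5275 and 5483 under Cugbp1 siRNA, and 4481, 5029 and 5507 under control siRNA. Of these small subunits of 1 sector, Atp5md was thus higher and Atp5mpl lower.

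The Mbnl1 siRNA arrays lay above all control arrays for 3 members, Ndufa9, Ndufb3 and Uqcrc1 (14.6% of all genes did), and below all of them for Ndufs4 and Uqcrfs1 (20.3% of all genes). For Uqcrfs1 the gap was very small, with 669.86 under Mbnl1 siRNA at 5 h and the same value of 670.94 on all 3 control arrays. The count of 22 was 12 without the control array at 2.5 h, without the control array at 5 h and without the Mbnl1 siRNA array at 5 h. The 1 lower member became 2 without the Cugbp1 siRNA or the Mbnl1 siRNA array at 0 h.

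The summed intensity of the 6 differentiated muscle markers was 2092 to 2193 under Mbnl1 siRNA, 1477 to 1616 under Cugbp1 siRNA and 1359 to 1577 under control siRNA. Of these markers Tnnt3 (1.05 ± 0.06), Ckm (0.64 ± 0.06) and Acta1 (0.47 ± 0.07) were higher under Mbnl1 siRNA than under control siRNA, and Myog, Myh3 and Myh8 lay under the filter. The summed intensity of the 6 myoblast markers was 17127 to 17361 under Mbnl1 siRNA, 18708 to 19958 under Cugbp1 siRNA and 18855 to 19728 under control siRNA. Of these, Cdh15 (−0.58 ± 0.04) and Myod1 (−0.58 ± 0.05) were lower under Mbnl1 siRNA than under control siRNA, and the other 4 did not pass. Cd68 was higher by 1.15 ± 0.04 while the macrophage and leukocyte markers Ptprc and Adgre1 lay under the filter. The muscle isoform Cox7a1 read 261, 305 and 346 under Mbnl1 siRNA, 221, 283 and 318 under Cugbp1 siRNA, and 255, 283 and 297 under control siRNA, and its difference of 0.12 ± 0.06 from control did not pass (limma adjusted p = 0.113). The part of these marker changes in the subunit levels was not tested.

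Among the assembly factors, 12 of 38 were higher and 8 lower under Mbnl1 siRNA than under control siRNA, with a median of 0.02. These shares are not far from the 24% and 31% of all genes. With equal ribosomal protein medians 7 were higher and 7 lower, against 20.1% and 25.4% of all genes. Bcs1l, which inserts the Rieske protein into complex III, was lower by −0.53 ± 0.04, and the complex I assembly factor Foxred1 by −0.36 ± 0.04. Cox19 was higher by 0.47 ± 0.06, Surf1, an assembly factor of complex IV, by 0.37 ± 0.04, and Lrpprc, which stabilises mitochondrial mRNAs, by 0.26 ± 0.04. Of the 15 citrate cycle and pyruvate dehydrogenase genes 2 were higher and 2 lower, and the alpha and beta subunits of the dehydrogenase moved in opposite directions, with −0.67 ± 0.04 for Pdha1 and 0.40 ± 0.06 for Pdhb.

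Under Cugbp1 siRNA 5 members were higher than under control siRNA and 0 were lower, against 10.5% and 8.67% of all genes. The shares of higher and of lower members were thus both under those of all genes. The median was 0.05, against 0.01 for all genes. The 5 were Ndufs4 (0.22 ± 0.06), Sdhb (0.20 ± 0.05), Uqcrc1 (0.16 ± 0.04), Ndufv1 (0.15 ± 0.03) and Sdha (0.12 ± 0.03), with limma adjusted p-values from 0.0203 to 0.0474. They include both catalytic subunits of complex II, and its membrane anchors Sdhc and Sdhd were at 0.02 ± 0.03 and 0.06 ± 0.04 and did not pass. The difference between the catalytic subunits and the anchors was not tested. With equal ribosomal protein medians 0 genes of complex II passed.

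Ndufs4, an accessory subunit of the peripheral arm of complex I, read 3535, 3486 and 3495 at 0, 2.5 and 5 h under Mbnl1 siRNA, 3870.1, 4623 and 4708 under Cugbp1 siRNA, and 3778, 3681 and 3817 under control siRNA. Its Cugbp1 siRNA arrays all lay above the control arrays and its Mbnl1 siRNA arrays all below them. The level difference averages the times, and for Ndufs4 the gap between Cugbp1 siRNA and control siRNA was small at 0 h (3870.1 against 3778). It was wider at 2.5 and 5 h. Sdhb read 1693, 1855 and 2057 under Mbnl1 siRNA, 1898, 2120.4 and 2455 under Cugbp1 siRNA, and 1750.3, 1934 and 1941 under control siRNA. Sdhb was above control at each time under Cugbp1 siRNA, most at 5 h, though the arms overlap across times. Besides Ndufs4, the Cugbp1 siRNA arrays lay above all control arrays for Ndufc2, Ndufs7 and Uqcrc2 (8.57% of all genes did), which did not pass the test, and below all of them for 0 members (7.67% of all genes).

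These Cugbp1 siRNA calls rest on small differences. Only Ndufs4 of the 5 passed with equal ribosomal protein medians (6.28% of all genes were higher), with no filter on low values 0 did, and the count was 0 without the control array at 2.5 or 5 h and without the Cugbp1 siRNA array at 2.5 or 5 h, and 2 without the control array at 0 h or the Mbnl1 siRNA array at 2.5 h. The count was 12 with the filter at the 75th percentile and 14 with a trend in eBayes. Apart from the equal ribosomal protein medians, the share of all genes was not counted in these runs, so the counts describe how the calls depend on processing. Of the 38 assembly factors 5 were higher and 1 lower, against 10.5% and 8.67% of all genes, and 2 were higher and 0 lower with equal ribosomal protein medians. Among the 6 were Atpaf1, which binds the beta subunit of the ATP synthase (0.34 ± 0.05), Surf1 (0.23 ± 0.04) and Cox11 (−0.21 ± 0.04).

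Set against each other, the knockdowns left 52 of the 74 members uncalled, and the called ones went both ways. Under Mbnl1 siRNA 10 members were higher and 12 lower than under Cugbp1 siRNA, against 23% and 33.4% of all genes, with a median of −0.00077. The lowest were Ndufs4 (−0.32 ± 0.06), Atp5mpl (−0.27 ± 0.05), Uqcr11, a small subunit of complex III (−0.24 ± 0.06), and Sdhb (−0.20 ± 0.05). The highest were Ndufb3 (0.33 ± 0.06), Ndufb11 (0.30 ± 0.04), Ndufv3 (0.28 ± 0.06) and Ndufa3 (0.26 ± 0.06). All 8 also passed with equal ribosomal protein medians, where 6 members were higher and 5 lower (18% and 28.8% of all genes). The value for Uqcr11 rests on the brighter of its 2 probe sets. With the brighter named first, these differed from control by −0.08 and 0.0014 under Mbnl1 siRNA. Under Cugbp1 siRNA they differed from control by 0.16 and 0.12, so the dimmer probe set showed a smaller difference between the knockdowns. Uqcrc1 was higher than control under both siRNAs, by 0.18 ± 0.04 under Mbnl1 siRNA and 0.16 ± 0.04 under Cugbp1 siRNA, 2 differences that share the control arrays. The count of higher members was 5 without the Cugbp1 siRNA array at 0 h or the Mbnl1 siRNA array at 5 h, and 6 without the control array at 2.5 h, the Cugbp1 siRNA array at 2.5 h or the Mbnl1 siRNA array at 0 h. That of lower members was 5 without the Cugbp1 siRNA array at 2.5 h and 6 without that at 5 h or the Mbnl1 siRNA array at 2.5 h.

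No member's course over time was found to depend on the siRNA. The hourly slope of log2 intensity was compared between arms in a second limma fit with 2 residual degrees of freedom. Of the 74 members 0 passed for Mbnl1 siRNA against control siRNA (2 had an unadjusted p under 0.05), 0 for Cugbp1 siRNA against control siRNA (7 had) and 0 for Mbnl1 siRNA against Cugbp1 siRNA (2 had). Over all 9864 genes, 1361, 1129 and 1609 had an unadjusted p under 0.05 in these comparisons, in the same order. Of all genes, 0% had a higher and 0.0203% a lower slope under Mbnl1 siRNA than under control siRNA, 0% either way under Cugbp1 siRNA than under control siRNA, and 0.0912% a higher and 0.852% a lower slope under Mbnl1 siRNA than under Cugbp1 siRNA. The lowest adjusted p under Mbnl1 siRNA was that of Atp5k, whose slope differed from control by 0.06 ± 0.02 per h (limma adjusted p = 0.1997), and under Cugbp1 siRNA that of Cox7a1, with 0.06 ± 0.02 per h (limma adjusted p = 0.341). The median SE of a slope difference was 0.018 per h, and the 0.06 per h of Atp5k and of Cox7a1 did not pass. Differences of that size or smaller could thus go uncalled with these arrays. The lack of calls does not show that the courses were alike.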

How the data were processed

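The table holds RMA intensity on the linear scale, made by the authors from Affymetrix arrays with Expression Console, per the submitters' processing notes; the scale was read from the values. The sources used here give no tool versions. log2 of the deposited intensity was taken. Of 35556 probe sets, 21789 have 1 gene symbol, 1621 several and 12146 none. Genes were tested by their brightest probe set where its mean log2 reached 7.385 (intensity 167.1).

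Levels and times were tested in limma 3.58.1 (R 4.3.3) with siRNA and time as factors (4 residual degrees of freedom), and slopes with a line in hours per siRNA added. A call needs a p under 0.05 after Benjamini-Hochberg adjustment across the 9864 genes. The fits were tested on simulated data. Alternatives were equal ribosomal protein medians, other filters, probe set means, eBayes with trend or robust, only the 6 arrays compared, and each array left out. Members, lists and the naming rule (the 10 highest and 10 lowest members per comparison, core subunits, tissue isoforms and called genes of the lists) were chosen with earlier results of these data known.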

Additional observations from a re-analysis of the deposited data

Results flagged for a closer look

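For 2 members the arrays after actinomycin D moved to opposite sides of 0 h in different arms. For Ndufs4 the difference of 5 h minus 0 h was −0.0164 under Mbnl1 siRNA, 0.2826 under Cugbp1 siRNA and 0.0149 under control siRNA, and both later arrays lay below 0 h under Mbnl1 siRNA and above it under Cugbp1 siRNA. The slope difference between those arms, −0.06 ± 0.02 per h, did not pass the test (limma adjusted p = 0.254). For Ndufs7 the differences were 0.0244 under Mbnl1 siRNA, −0.0007 under Cugbp1 siRNA and 0.0733 under control siRNA. The Mbnl1 siRNA and Cugbp1 siRNA values are smaller in size than 0.03, the standard error of the mean over the arms. Each arm's value sets 1 array against 1 other and is less precise than that mean. Both later arrays of Ndufs7 lay below 0 h under Cugbp1 siRNA and above it in the other arms. Its slope difference of Mbnl1 siRNA minus Cugbp1 siRNA, 0.0050 ± 0.0162 per h, did not pass (limma adjusted p = 0.916).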

How the results depend on the processing

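Apart from the equal ribosomal protein medians, the share of all genes was not counted in the alternative runs. Their member counts, here and above, describe how the calls depend on processing and were not set against all genes. At 5 h against 0 h, between 63 and 65 members were higher and 0 lower with any 1 array left out. With equal ribosomal protein medians 15 were higher and 4 lower at 5 h, 7 higher at 2.5 h and 0 higher between 2.5 and 5 h. Under that scaling 28 of 74 differences were below 0 at 5 h and 24 at 2.5 h. Among those at 5 h were Atp5a1 −0.16, Atp5b −0.20, Cox6b1 −0.0453, Cox8a −0.0491, Ndufs1 −0.0675, Ndufs3 −0.13, Ndufs7 −0.20, Ndufs8 −0.0916, Ndufv2 −0.0932, Sdha −0.0550, Uqcrc1 −0.0447, Uqcrc2 −0.12 and Uqcrfs1 −0.16, and among those at 2.5 h was Ndufs8, −6.58e-05. It left 1 member higher under Cugbp1 siRNA, and 6 higher and 5 lower under Mbnl1 siRNA than under Cugbp1 siRNA. With no filter, which adds genes to the adjustment, 3 were higher between 2.5 and 5 h, 14 higher under Mbnl1 siRNA and 0 under Cugbp1 siRNA than under control siRNA, and 6 higher and 6 lower under Mbnl1 siRNA than under Cugbp1 siRNA. With the filter at the 75th percentile, which tests fewer genes, 3 were lower under Mbnl1 siRNA and 12 higher under Cugbp1 siRNA than under control siRNA. With a trend in eBayes 35 were higher between 2.5 and 5 h, 2 lower under Mbnl1 siRNA and 14 higher under Cugbp1 siRNA. With only the 6 arrays compared, 2 were higher under Cugbp1 siRNA. Leaving out 1 array gave 30 to 48 higher at 2.5 h against 0 h, 2 to 21 higher at 5 h against 2.5 h, 12 to 21 higher and 1 to 2 lower under Mbnl1 siRNA, 0 to 6 higher under Cugbp1 siRNA, and 5 to 10 higher and 5 to 11 lower under Mbnl1 siRNA against Cugbp1 siRNA. Slope calls were 0 in every alternative run. Where no construction is named, the cause was not tested. The fit already sets times against each other within siRNAs and siRNAs within times.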

Other observations

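Some respiratory chain genes were on probe sets with several symbols, which the rule left out. The 3 probe sets shared by Cox7c, a subunit of complex IV, and Gm12338 gained 0.17 to 0.20 on the log2 scale from 0 to 5 h within the arms. The 2 shared by Ndufb4 and Ndufb4b gained 0.16 to 0.29. The 1 shared by Ndufs5 and Ndufs5-ps gained 0.49 under Mbnl1 siRNA, 0.52 under Cugbp1 siRNA and 0.27 under control siRNA. None of these was tested.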
